A study of Oryza sativa and Oryza rufipogon with 8 samples.

Results

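The metallothionein family of rice was followed in root RNA of plants with and without Fe. The family was taken as 10 metallothionein and metallothionein-like genes of *O. sativa*, chosen by identifier, and all 10 were present among the 35679 genes of the *O. sativa* tables. Of these, 5 lie on chromosome 12 (OS12G0567800, OS12G0568500, OS12G0570700, OS12G0571000 and OS12G0571100), 2 on chromosome 1 (OS01G0200700 and OS01G0974200) and 1 each on chromosomes 3, 5 and 11 (OS03G0288000, OS05G0111300 and OS11G0704500). Names were used where the study or its annotation gives them: *MT4A* for OS12G0570700, *MT4C* for OS12G0571100, *MT3A* for OS01G0200700 and metallothionein-like protein 1 for OS12G0568500. In *O. rufipogon*, with 37071 genes, 2 partner genes were examined, ORUFI12G18180 for *MT4A* and ORUFI12G18020 for metallothionein-like protein 1. These pairs entered the study's list because both partners responded to Fe deficiency in these libraries, so their direction is not independent evidence. The other family members of *O. rufipogon* were not analysed here.

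The plants were *O. sativa* cv. Nipponbare and a single accession of *O. rufipogon*, the wild progenitor of cultivated rice, and their roots were sampled after 5 days in nutrient solution with no Fe added (−Fe) or with 100 µM Fe-EDTA (control condition, CC). Plants of all groups were first grown in distilled water and then acclimated in nutrient solution with 100 µM Fe-EDTA before the treatments. They were at the 3-leaf stage when roots were taken. Each species and treatment had 2 libraries, 8 in all. Each library was a pool, of roots from 3 plants by the deposited design and of RNA from 3 biological replicates by the study's methods, and which of these applies was not settled. The libraries held between 22911261 and 25312301 estimated counts in *O. sativa* and between 14758304 and 18857150 in *O. rufipogon*, so that 3 counts corresponded to 0.122 to 0.130 CPM (counts scaled to a common library total) in *O. sativa* and 0.159 to 0.201 CPM in *O. rufipogon*.

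Metallothioneins are small proteins rich in cysteine, whose thiol groups bind metals such as Cu, Zn and Cd and can scavenge reactive oxygen species. Plant metallothioneins are sorted into types by the arrangement of their cysteines, and type 1 members are known for strong expression in roots. RefSeq lists OsMT-I-4a, OsMT1b and OsIDS1 as synonyms of *MT4A* and OsMT-I-4c and OsMT1c as synonyms of *MT4C*. Through OsMT1b and OsMT1c, both carry a type 1 designation beside the digit in their symbol. Grasses take up Fe mainly by releasing phytosiderophores, chelators built from methionine, and genes of that pathway rise strongly in roots that lack Fe.

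Levels of different genes are compared as TPM, a transcript abundance corrected for transcript length and library total, and treatments are compared as CPM after TMM normalization, which scales libraries to one another. Fold changes, standard errors (SE) and adjusted p values are from the quasi-likelihood test of edgeR with Benjamini-Hochberg adjustment over all genes tested in a species, and a gene was called at a false discovery rate (FDR) of 0.05. With 2 libraries against 2, exact permutation of the libraries reaches no p below 0.333 for any gene, so it was not used.

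Under −Fe, 6 of the 10 *O. sativa* metallothionein genes rose, 1 fell and 3 did not pass the FDR. All 5 genes on chromosome 12 rose, *MT4A* the most (38.6-fold), and OS11G0704500 also rose, whereas *MT3A* was 3.99-fold lower. Over all 25767 genes tested in *O. sativa*, 2.98% rose and 3.66% fell. The median log2 fold change of the 10 genes was 0.89, against −0.01 over all genes. In 7 of the 10 genes both −Fe libraries lay above both CC libraries, which was so for 24.5% of all genes tested. In 1 gene, *MT3A*, both lay below, as for 27.1% of all genes, and in the other 2 genes the treatments overlapped. The members were chosen with earlier results of these data known. *MT4A* and metallothionein-like protein 1 are on the study's list because they responded in these libraries. The contrast of the 10 genes with all genes is therefore a description. These libraries were made from whole roots, where fewer cells of a type and less RNA per cell cannot be told apart.

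The sums over the 10 genes show how much of the root transcriptome they took, and any other metallothionein genes of rice were not counted. The 10 genes together accounted for 4.04% and 4.13% of all TPM in the −Fe libraries, against 2.03% and 1.65% in the CC libraries. In estimated counts, their share was 1.74% and 1.80% under −Fe and 0.884% and 0.718% under CC, and the summed CPM was 2.26 times as high under −Fe as under CC. The treatments did not overlap on either scale. Of the net gain in summed TPM, 98.3% came from 4 genes, *MT4C* (27.8%), OS11G0704500 (27.2%), metallothionein-like protein 1 (22.7%) and *MT4A* (20.6%). The same 4 genes were among the 5 genes of the whole *O. sativa* transcriptome with the largest rise in TPM. *MT4C* had the largest and OS11G0704500 the next, while the remaining gene, OS07G0432201, is not among the 10 genes and was named after its values were seen. Whether OS07G0432201 is a metallothionein gene was not analysed here.

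**Figure D1:**
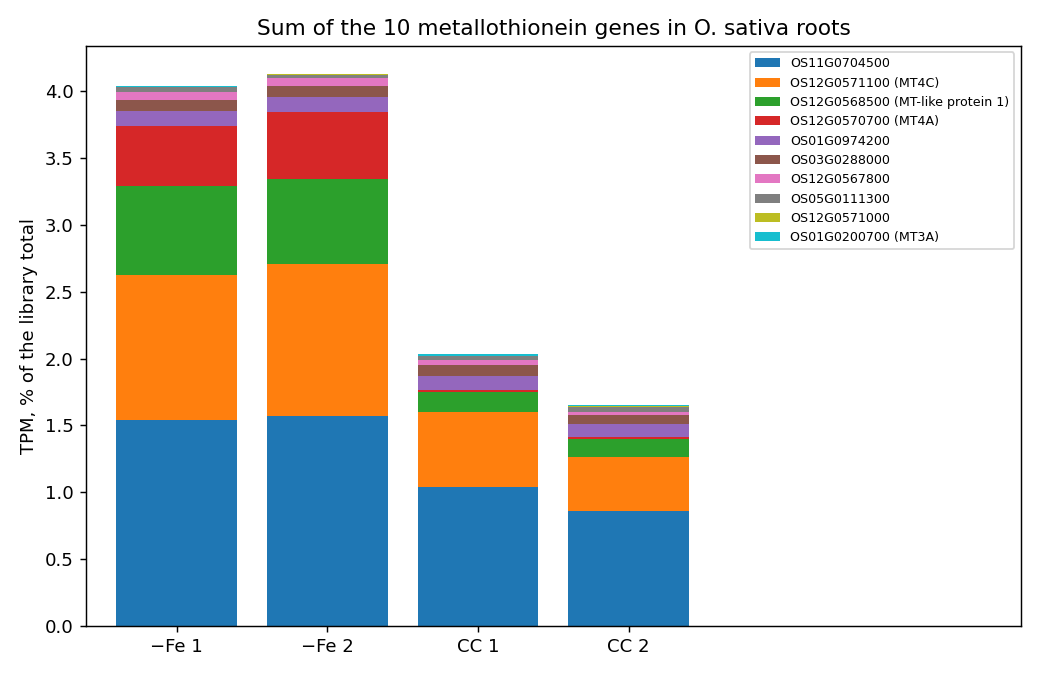
Summed TPM of the 10 *O. sativa* metallothionein genes as a percentage of the library total, 1 bar for each library (−Fe on the left, CC on the right) with 1 colour for each gene. The −Fe bars reach 4.04% and 4.13% and the CC bars 2.03% and 1.65%, and *MT4A* (red) is a visible band only under −Fe.

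The 10 genes covered a wide range of levels. OS11G0704500 had the highest TPM of any *O. sativa* gene in all 4 libraries, and OS12G0571000 or *MT3A* the lowest of the family. By mean TPM, *MT4A* was the fourth highest of the 10 genes under −Fe and the eighth highest under CC. Under −Fe the order of the others at the top was OS11G0704500, *MT4C* and metallothionein-like protein 1, as under CC. Within either treatment, no neighbours in the order of the 10 genes had overlapping TPM values, but this order rests on reads that Kallisto divided between genes in 7 of the 10, described below.

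**Figure D2:**
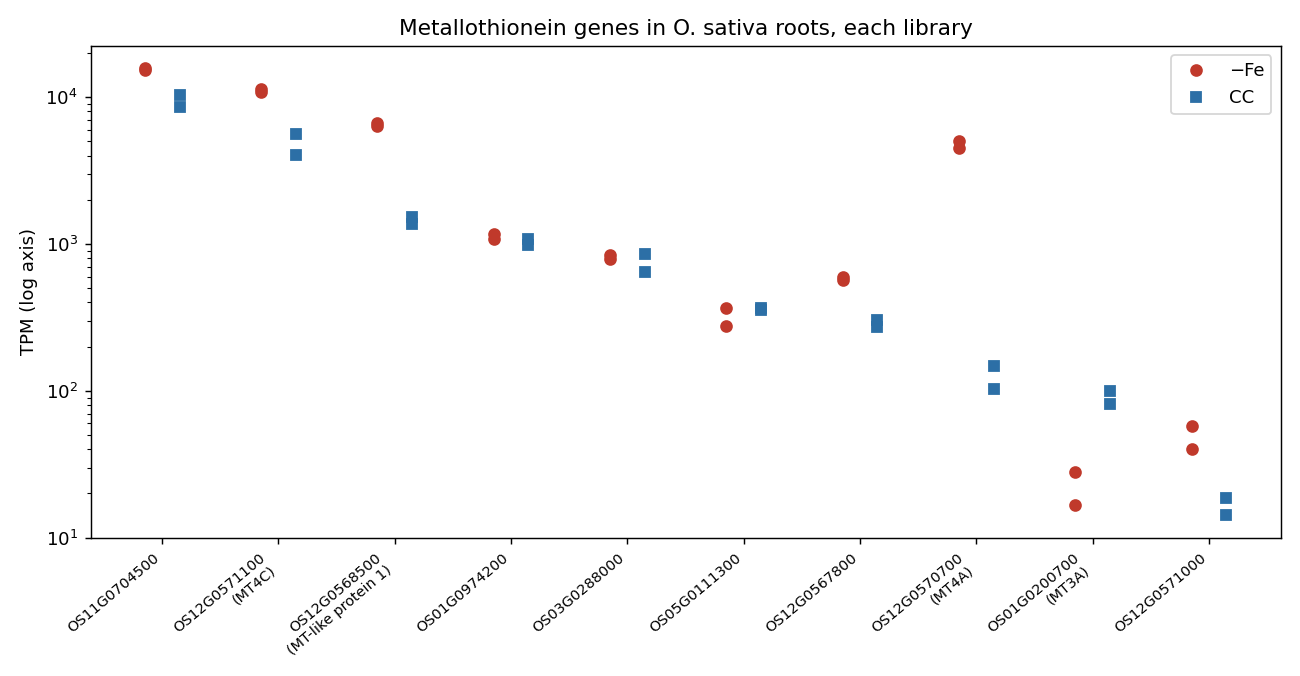
TPM of each metallothionein gene in each *O. sativa* library on a log axis (red circles −Fe, blue squares CC, 2 libraries each), with genes ordered by their mean under CC. *MT4A* at 4490 and 5018 TPM under −Fe stands far above its 104 and 147 TPM under CC, and *MT3A* is the gene whose −Fe points lie clearly below its CC points.

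*MT4A*, listed by the study among the genes that responded in both species, gave the largest response of the family. Its normalized count was 2115 and 2478 CPM in the −Fe libraries, against 48.8 and 70.2 CPM in the CC libraries. The log2 fold change was 5.27 (SE 0.21), a 38.6-fold increase (95% interval 27.0 to 55.2, adjusted p = 4.41e-05 in edgeR). By size of fold change it ranked 37 among the 767 *O. sativa* genes that rose. In TPM, *MT4A* held rank 7 of all genes in both −Fe libraries, against ranks 1878 and 1316 in the CC libraries. Its part of the summed TPM of the family was 11.1% and 12.1% under −Fe and 0.510% and 0.889% under CC.

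The other 16 genes of Fe uptake and homeostasis that were taken from the study's list give a scale for this response. Of these, 15 rose and 1 fell under −Fe, with a median log2 fold change of 2.59, and as they were listed because they responded in these libraries, the count is a description. The largest rise among them was a log2 fold change of 4.07 for *IRT2*, an Fe transporter, below the 5.27 of *MT4A*. *NAAT1*, an aminotransferase of phytosiderophore synthesis, had a log2 fold change of 3.33, *YSL15*, a transporter of the Fe-phytosiderophore complex, 2.99, and *HRZ1*, an Fe-binding regulator, 2.53. The fall was in *VIT2*, a vacuolar Fe transporter, with a log2 fold change of −1.18.

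Metallothionein-like protein 1 (OS12G0568500) was more abundant than *MT4A* in CC roots and also rose. It reached 2618 and 2642 CPM in the −Fe libraries, against 599 and 542 CPM in the CC libraries, and the 2 libraries of a treatment were close to each other. The log2 fold change was 2.20 (SE 0.11, adjusted p = 5.63e-06 in edgeR), 4.61-fold. Its TPM was 6656 and 6410 under −Fe and 1524 and 1358 under CC.

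*MT4C* was already abundant in CC roots and rose further. It had 4629 and 5067 CPM in the −Fe libraries, against 2401 and 1762 CPM in the CC libraries, with no overlap. The log2 fold change of 1.22 (SE 0.16, adjusted p = 0.00287 in edgeR) was smaller than those of *MT4A*, metallothionein-like protein 1 and OS12G0571000, but on the TPM scale the gain was the largest of any *O. sativa* gene, with 10857 and 11339 TPM under −Fe and 5632 and 4068 TPM under CC. In RefSeq's gene order, 1 gene lies between *MT4A* and *MT4C*.

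The remaining members on chromosome 12, OS12G0571000 and OS12G0567800, had lower TPM than the other 3 under −Fe, while under CC OS12G0567800 was above *MT4A*. OS12G0571000 had 15.7 and 23.5 CPM in the −Fe libraries, against 5.53 and 7.45 CPM in the CC libraries, a log2 fold change of 1.59 (SE 0.24, adjusted p = 0.0134 in edgeR). Without CC library 1 its log2 fold change was 1.40 and no longer passed (adjusted p = 0.0720 in edgeR). OS12G0567800 had 250.1 and 249.6 CPM in the −Fe libraries, against 127 and 116 CPM in the CC libraries. Its increase of 2.06-fold, a log2 fold change of 1.04 (SE 0.08, adjusted p = 0.000113 in edgeR), was small but had the narrowest error of the 10 genes.

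The 5 genes on chromosome 12 lie close together by identifier and shared reads. Kallisto divides a read that fits several transcripts between them, which leaves an estimate that is not a whole number, and in all 5 the estimate was further than 0.01 from a whole number in at least 1 library. Among all *O. sativa* genes, 37.1% shared reads in this sense, and 7 of the 10 metallothionein genes did. The share over all genes includes genes with no counts, which cannot show a divided read, whereas all 10 members had counts. The tables do not name the gene that holds the other part of a divided read, so the value of each single gene is uncertain to that extent. Sums over the cluster are less affected by reads divided within it, but reads were also divided with genes outside it. In the CC libraries, the summed estimates of all 5 genes, 74200.5 and 57636.5 counts, were not whole numbers either. *MT4A*, OS12G0571000 and *MT4C* together had 6760 and 7569 CPM in the −Fe libraries, against 2455 and 1839 CPM in the CC libraries, a ratio of 3.34. All 5 together had 9628 and 10461 CPM under −Fe and 3182 and 2497 CPM under CC, a ratio of 3.54. Both sums, like the single genes, were higher in each −Fe library than in each CC library.

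Most of the genes around them did not pass the FDR, although the share that did was larger than among all genes. Between OS12G0567800 and OS12G0571100 lie 20 other identifiers, of which 16 had enough counts to be tested. Of these 16 genes, 2 rose and 1 fell, with a median log2 fold change of 0.15. Over all genes tested, 2.98% rose and 3.66% fell. OS12G0568350 had 110 and 114 CPM under −Fe and 25.6 and 23.1 CPM under CC, a log2 fold change of 2.20 (adjusted p = 1.55e-06 in edgeR) like that of metallothionein-like protein 1. OS12G0568200 also rose, with a log2 fold change of 1.32 (adjusted p = 0.00261 in edgeR), and these neighbours that rose both shared reads with another gene. OS12G0569200, whose estimates were whole numbers, fell by 0.87 on the log2 scale (adjusted p = 0.000475 in edgeR). The sources used here give no name for these 3 genes.

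OS11G0704500 was the most abundant gene of the root libraries and rose by the smallest factor of those called. It had 6654 and 7123 CPM in the −Fe libraries, against 4474 and 3752 CPM in the CC libraries. The log2 fold change was 0.74 (SE 0.13, adjusted p = 0.0120 in edgeR), 1.67-fold, and the treatments did not overlap. This call did not hold when any 1 of the 4 libraries was left out, with log2 fold changes of 0.62 to 0.88 and adjusted p between 0.0570 and 0.190 in edgeR. Its part of the summed TPM of the family was 38.1% and 38.0% under −Fe and 50.9% and 51.8% under CC, smaller under −Fe although its own level was higher.

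*MT3A*, named as a type 3 member, was the only one of the 10 genes that fell. It had 12.4 and 7.69 CPM in the −Fe libraries, against 44.0 and 36.3 CPM in the CC libraries, with both −Fe values below both CC values. The log2 fold change was −1.997 (SE 0.25, adjusted p = 0.0145 in edgeR), a level 3.99-fold lower under −Fe, and it ranked 94 among the 942 *O. sativa* genes that fell. Its estimates were whole numbers in all 4 libraries, so that no reads of *MT3A* were divided with another gene.

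The other 3 genes did not pass the FDR, and their intervals bound the change. OS01G0974200 had 418 and 405 CPM in the −Fe libraries, against 386 and 360 CPM in the CC libraries, with a 95% interval of the log2 fold change from −0.05 to 0.34 (adjusted p = 0.414 in edgeR). OS05G0111300 had 179 and 145 CPM under −Fe, against 175.5 and 181 CPM under CC, with an interval from −0.38 to 0.10 (adjusted p = 0.531 in edgeR). For OS03G0288000 the interval was −0.39 to 0.18 (adjusted p = 0.721 in edgeR), with 334 and 370 CPM under −Fe and 423 and 333 CPM under CC. The treatments overlapped in OS05G0111300 and OS03G0288000 but not in OS01G0974200, where the −Fe libraries were slightly higher. The intervals of these 3 genes allow a fall of up to 1.31-fold, in OS03G0288000, and a rise of up to 1.26-fold, in OS01G0974200.

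**Figure D3:**
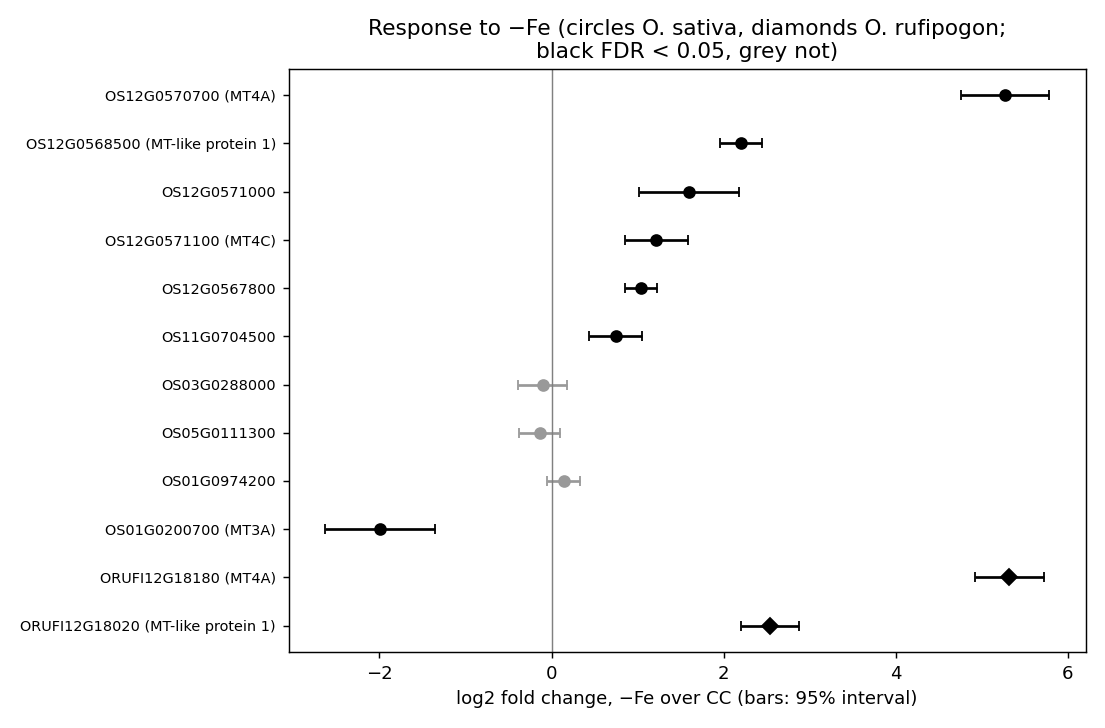
Log2 fold change of −Fe over CC with its 95% interval for the 10 *O. sativa* genes (circles) and the 2 *O. rufipogon* partners (diamonds), black where the FDR was under 0.05 and grey where it was not. *MT4A* and its partner lie at 5.27 and 5.32, *MT3A* lies at −1.997, and the 3 grey genes have intervals that include 0.

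The 3 genes that did not pass are also the members with several annotated transcripts, and in OS03G0288000 the transcripts moved apart. Its longer transcript, OS03T0288000-01 of 751 nt, had 294 and 308 TPM in the −Fe libraries, against 538 and 441 TPM in the CC libraries. Its shorter transcript, OS03T0288000-02 of 413 nt, had 500.5 and 536 TPM under −Fe, against 322 and 205 TPM under CC. The shorter transcript thus held the larger part of the TPM of the gene under −Fe, 63.0% and 63.5%, and the smaller part under CC, 37.5% and 31.7%. Tested among all 30675 *O. sativa* transcripts, the longer one fell by 0.68 on the log2 scale (adjusted p = 0.0360 in edgeR). The shorter one had a log2 fold change of 0.998 that did not pass (adjusted p = 0.136 in edgeR). OS03G0288000 shared reads with another gene, and reads that fit both of its transcripts were divided by estimate, so the split between them is less certain than their sum.

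Among all transcripts, 1.72% rose and 1.67% fell, whereas of the 14 metallothionein transcripts 6 rose and 2 fell. This count, like that of the genes, is a description. The 6 that rose belong to the same 6 genes, and the 2 that fell to *MT3A* and OS03G0288000. In OS01G0974200, OS01T0974200-02 carried 91.8% and 93.0% of the TPM of the gene under −Fe and 90.2% and 89.3% under CC, and the smallest adjusted p of its 3 transcripts was 0.291 in edgeR. In OS05G0111300, OS05T0111300-01 carried 57.7% and 68.6% under −Fe and 58.5% and 55.0% under CC, and the smaller adjusted p of its transcripts was 0.617 in edgeR.

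**Figure D4:**
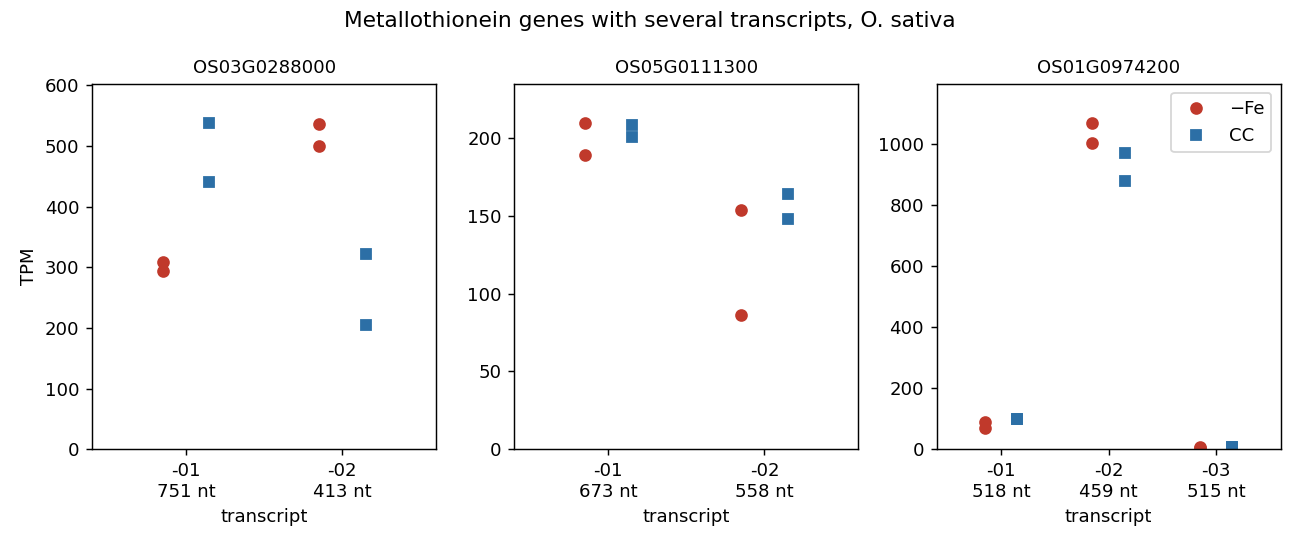
TPM of each annotated transcript of OS03G0288000, OS05G0111300 and OS01G0974200 in each *O. sativa* library (red circles −Fe, blue squares CC), with the transcript length under each suffix. In OS03G0288000 the 751 nt transcript is lower and the 413 nt transcript higher in both −Fe libraries, while the treatments overlap in both transcripts of OS05G0111300.

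Both partner genes of *O. rufipogon* rose under −Fe, where 11.9% of the 21081 genes tested in that species did. ORUFI12G18180, the partner of *MT4A*, had 2069 and 1686 CPM in the −Fe libraries, against 46.2 and 47.5 CPM in the CC libraries. Its log2 fold change was 5.32 (SE 0.16, adjusted p = 0.000527 in edgeR), a 40.0-fold increase. ORUFI12G18020, the partner of metallothionein-like protein 1, had 1863 and 2063 CPM in the −Fe libraries, against 312 and 362 CPM in the CC libraries. Its log2 fold change was 2.54 (SE 0.14, adjusted p = 0.00118 in edgeR), 5.82-fold, and its rise in TPM was the largest of any *O. rufipogon* gene. That rank depends on its transcript model of 267 nt, because TPM is corrected for length, while the model of ORUFI12G18180 has 735 nt. In CPM, which is not, the mean of ORUFI12G18020 went from 337 to 1963 and that of ORUFI12G18180 from 46.9 to 1878. Both genes shared reads with another gene, and in both the treatments were far apart.

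Whether both species responded by the same factor was tested by a species × treatment interaction across the 102 ortholog pairs that the study lists, and 35.3% of these passed the FDR. For *MT4A* the log2 fold change in *O. rufipogon* minus that in *O. sativa* was 0.05 (SE 0.28), with a 95% interval from −0.56 to 0.67 (adjusted p = 0.909 in edgeR). For metallothionein-like protein 1 the difference was 0.34 (SE 0.24), with an interval from −0.18 to 0.86 (adjusted p = 0.307 in edgeR). No difference in response was detected for either pair, and the intervals still allow one of 1.59-fold for *MT4A* and 1.82-fold for metallothionein-like protein 1. Levels were not compared between the species, because each was quantified on its own transcript models, which measure 735 nt in *O. rufipogon* against 600 nt in *O. sativa* for *MT4A* and 267 nt against 506 nt for metallothionein-like protein 1.

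**Figure D5:**
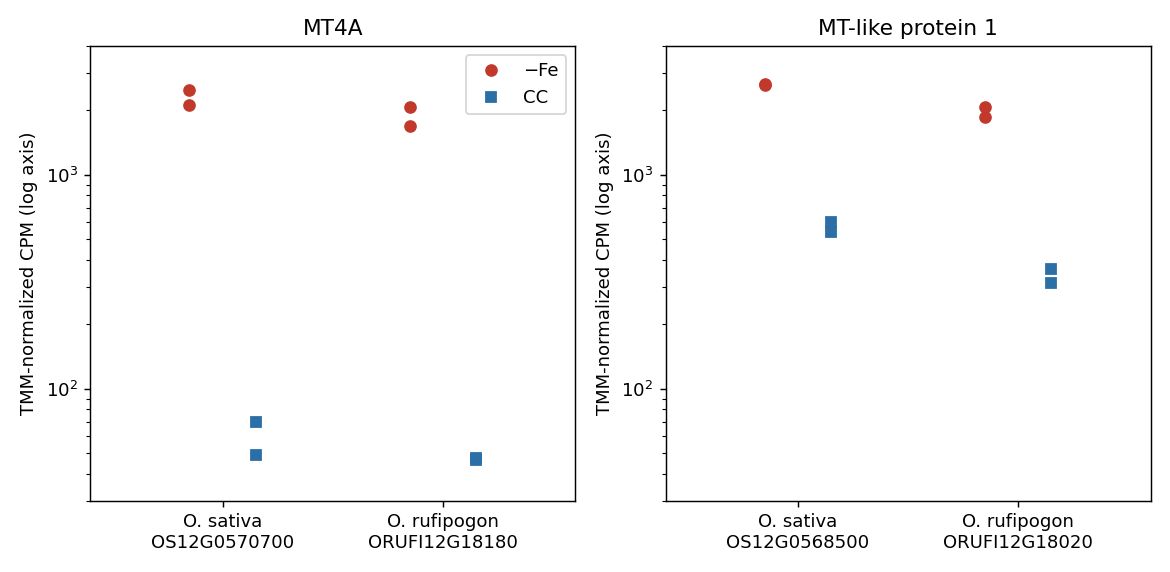
TMM-normalized CPM on a log axis for *MT4A* (left panel) and metallothionein-like protein 1 (right panel) and their *O. rufipogon* partners, in each −Fe (red circles) and CC (blue squares) library. The distance between treatments is 38.6-fold in *O. sativa* and 40.0-fold in *O. rufipogon* for *MT4A*, and 4.61-fold and 5.82-fold for metallothionein-like protein 1.

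The labels were checked on genes of known behaviour in *O. sativa*. *IRO2*, a transcription factor of the Fe deficiency response, had a log2 fold change of 3.43 and *IRT1*, an Fe transporter, 1.98, both higher under −Fe. Both are on the study's list because they responded in these libraries, so their direction is not independent evidence for the labels. Genes typical of roots were expressed in all libraries but moved with the treatment: the silicon transporters Lsi1 and Lsi2 fell, with log2 fold changes of −1.45 and −1.16, while the root gene RCc3 did not pass the FDR at −0.91 (adjusted p = 0.0770 in edgeR). The 3 genes had summed levels of 1620 and 2014 TPM under −Fe and 4230 and 3976 TPM under CC. The part of this shift in the changes of the metallothionein genes was not tested. Of 5 shoot genes (RuBisCO small subunits and chlorophyll a-b binding proteins) all were detected and their adjusted p in edgeR was between 0.558 and 0.995, with summed levels of 401 and 172 TPM under −Fe and 292 and 468 TPM under CC, ranges that overlap.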

How the data were processed

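The authors sequenced single-end reads, discarded those of low quality (PHRED below 30), trimmed adapters and the first 12 nt, and ran Kallisto on the transcripts of each species. They deposited estimated counts and TPM per transcript, and the submitters' processing notes name the IRGSP-1.0 build and FastQC. Versions of Kallisto and of the *O. rufipogon* transcripts are not given in the sources used here. In every table the effective length is the length minus 31. The authors' own test, sleuth, was not rerun here.

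Estimated counts were summed per gene and rounded, and within each species, genes reaching 5 counts in 2 or more of its 4 libraries were tested in edgeR 4.0.16 (TMM, robust quasi-likelihood fit, R 4.3.3). The SE is the log2 fold change divided by the square root of F, and intervals use the moderated degrees of freedom. Libraries were grouped by their labels. Nothing says that libraries of the same number were grown together. The p values set the treatment difference against the spread between the 2 libraries of pooled plants in each group. In edgeR this spread is moderated with values from all genes. The 3-count limit covers counting error only, because several reads without a molecular identifier may come from the same molecule. Scripts were tested on simulated data.

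Alternatives were median-ratio size factors, DESeq2 1.42.0, no count filter, a minimum of 10 counts per library, limma 3.58.1 on log2(CPM + 0.5), log2(TPM + 1) and log2(TPM + 0.1), a replicate block, scaling without the metallothionein genes, single transcripts, and leaving out each library.

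The text names all 10 members, their 2 partners and, from each context list, at most 3 genes with the smallest adjusted p, besides *IRT2* and *VIT2* for the extremes and OS07G0432201 and ORUFI12G18190, chosen after their values were seen. The members and lists were chosen with earlier results of these data known. Gene names come from the study and from RefSeq, where 2 of 3 names searched were found. Other rice metallothioneins, thiol chelators and sequences were not analysed here.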

Additional observations from a re-analysis of the deposited data

How the results depend on the processing

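Over the 10 *O. sativa* genes and their 2 partners, 170 of 180 alternative fits kept the direction and the side of the FDR. *MT4A* ranged from 5.03 to 5.56 (log2), metallothionein-like protein 1 from 2.13 to 2.28, *MT4C* from 1.01 to 1.46, OS12G0567800 from 0.97 to 1.11 and *MT3A* from −2.36 to −1.68, and all of these stayed called. Leaving out 1 library at a time, where the lone library is assumed to vary like the others, gave 1.28 to 1.88 for OS12G0571000, 0.62 to 0.88 for OS11G0704500, −0.26 to 0.080 for OS03G0288000 and −0.27 to 0.012 for OS05G0111300, so that 4 or 5 members rose in place of 6. OS03G0288000 had a log2 fold change of 0.14 on either TPM scale, where its shorter transcript weighs more by construction, and of −0.68 for its longer transcript alone, which made 2 members fall in place of 1. The *MT4A* interaction was −0.087 on log2(TPM + 1) and −0.23 to 0.29 with 1 library left out, and the cause of the changes in sign was not tested.

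The number of genes called moved more than the members. In *O. sativa* it was 1709, and 608 to 1098 with 1 library left out or 983 for the most abundant transcripts. In *O. rufipogon* it was 3378, and 227 with −Fe library 1 left out to 9592 with CC library 1 left out, or 886 for the most abundant transcripts, so the 11.9% that rose there rests on single libraries. Of the *O. rufipogon* calls, 2504 rose and 874 fell, against 2339 and 1323 in DESeq2 and 2521 and 1546 on log2(TPM + 1). The replicate number as a block changed none of 18 results, with 1717 genes called in *O. sativa* and 3489 in *O. rufipogon*. Same-numbered libraries correlated at −0.12 in *O. sativa* and 0.06 in *O. rufipogon*, which does not pair them, and a crossed block, chosen after seeing the data, called 2036 and 2958 genes.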

Other observations

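In *O. rufipogon*, the gene whose identifier follows that of the *MT4A* partner, ORUFI12G18190, had the second largest rise in TPM of that species, with 7878 and 8682 TPM in the −Fe libraries, against 3390 and 4069 TPM in the CC libraries (log2 fold change 1.30, SE 0.14, adjusted p = 0.00448 in edgeR). The gene with the largest rise, ORUFI12G18020, and the third, ORUFI12G18180, are the partners described above, so the 3 largest rises in TPM of the species all belong to genes of chromosome 12. These ranks in TPM depend on the length of each transcript model. The sources used here give no name for ORUFI12G18190, which was singled out after its values were seen, and whether it is a metallothionein gene was not analysed here.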
